A study of Mus musculus with 6 samples.

Results

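The HoxB cluster is a row of 10 coding genes for homeodomain transcription factors, Hoxb1 to Hoxb9 and Hoxb13. All 10 were found by symbol among the 52636 genes counted, and all 10 had enough reads to be tested. RNA was sequenced from mouse E14 embryonic stem cells after 4 days with retinoic acid, given at 5 µM (the labels write µm), once LIF and the inhibitors of MEK and GSK3 had been withdrawn. One group was wild type (3 libraries) and the other, of the same line under the same treatment, lacked an enhancer cluster that the series title ties to HoxB activation over a long range (3 libraries). The libraries of a group are called biological replicates in the series' design text. How many clones the knockout group represents, and where the deleted enhancers lie, was not given in the sources used here, so the deletion itself was not checked.

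Hox genes give cells their position along the head-to-tail axis. In vertebrates they lie in 4 clusters, A to D, and genes of like number in different clusters (paralogs) descend from a shared ancestor. Within a cluster, low-numbered genes are generally expressed further towards the head and respond earlier to retinoic acid than high-numbered ones. Retinoic acid reaches them through receptors bound to DNA elements in and around the clusters, and stem cells treated with it are a common model of this activation. In the mouse, HoxB patterns mainly the hindbrain, spinal cord and trunk.

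The cluster lies on chromosome 11 of GRCm38 (the build also called mm10), from 96194316 to 96368256. All 10 coding genes are on the plus strand, with Hoxb13 first by coordinate and Hoxb1 last. Hoxb9 to Hoxb1 are closely spaced, with gaps of 1307 to 12145 bases between neighbours, while Hoxb13 is 74009 bases away from Hoxb9. Between Hoxb13 and Hoxb9 lie the noncoding genes Gm53, a long intergenic RNA, and Mir196a-1. On the minus strand, Hoxb3os has exons that overlap 52.9% of the Hoxb3 exon bases and 27.3% of the Hoxb2 exon bases, and Hoxb5os has exons that overlap 3.59% of the Hoxb5 exon bases. The strand setting of the counting was not given in the sources used here, so reads of these pairs cannot be told apart.

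Libraries held 7780368 to 9472916 gene counts, of which 1656 to 1877 fell on the 10 HoxB genes in wild type and 1013 to 1114 in the knockout. Of 15816 genes tested, 68.6% changed, so the groups differed across most of the transcriptome. The labelled cell type of the samples is embryonic stem cell and the title speaks of neural progenitors. Of 10 neural progenitor markers listed, 6 were tested, Fabp7 was at 0 in every library and Sox1 stood at 1.98 ± 0.521 CPM (counts per 1000000 gene counts, with TMM-scaled library sizes) in wild type and 1.84 ± 0.607 CPM in the knockout (SD, n = 3). Their summed level was 315.3 to 330.2 CPM in wild type and 67.6 to 78.1 CPM in the knockout, and 1 of the tested markers rose, 3 fell and 2 did not pass. Nes (nestin) gave 231.4 ± 6.84 CPM of it in wild type and 33.6 ± 3.49 CPM in the knockout (SD, n = 3). Summed endoderm markers (9 genes, 6 up and 1 down) went the other way, from 1499.7 to 1526.4 CPM in wild type to 3829.8 to 3853.5 CPM in the knockout. Most of that sum was Lama1, a laminin gene, at 932.9 ± 17.3 CPM in wild type and 2811.2 ± 35.3 CPM in the knockout (SD, n = 3). Pluripotency markers (7 genes) summed to 1065.1 to 1094.4 and 869.6 to 910.2 CPM, but members went both ways, 3 up and 3 down. For comparison, 34.0% of all tested genes fell and 34.5% rose, so counts from such short lists say little. The shifts in marker levels ran with the groups, and their part in the HoxB results was not tested. In knockout replicate 1, ribosomal RNA locus genes made up 1.04% of gene counts, while elsewhere they made up 0.0726 to 0.118%, and HoxB calls were also made without that library.

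Of the 10 HoxB genes, 6 were lower in the knockout, 0 were higher and 4 did not pass the test. Those that fell were Hoxb1, Hoxb2, Hoxb3, Hoxb5, Hoxb8 and Hoxb9, and their knockout values stood at 50.5 to 79.4% of wild type. Hoxb4, Hoxb6, Hoxb7 and Hoxb13 did not pass. The background was high, since 34.0% of all tested genes were lower and 34.5% higher by the same rule. At an unadjusted p under 0.05 the counts were also 6 and 0, and limma-voom and DESeq2 gave 6 and 0 as well. The same 6 genes were called in each of the 13 alternatives run, the one without knockout replicate 1 included. The median log2 fold change of the 10 genes was -0.52, against 0.0091 for all tested genes. In these bulk samples, fewer cells expressing a gene and less of its RNA per cell cannot be told apart.

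**Figure D1:**
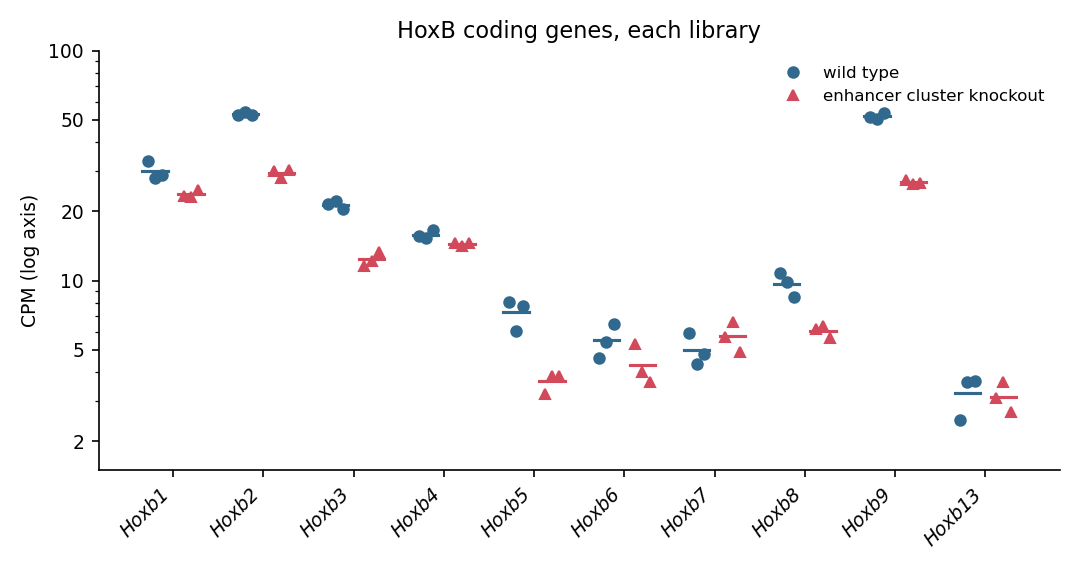
Level of each HoxB coding gene in each library, in CPM on a log axis, with genes in cluster order. Circles are the 3 wild-type libraries, triangles the 3 knockout libraries and short lines the group means. Hoxb2 and Hoxb9 show the widest separation relative to their spread, while the groups overlap for Hoxb6, Hoxb7 and Hoxb13.

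The first genes of the cluster act in the hindbrain. Hoxb1 (ENSMUSG00000018973, from 96365752 to 96368256), which gives the fourth rhombomere its identity, measured 33.1, 28.1 and 28.7 CPM across the wild-type libraries and 23.3, 23.1 and 24.8 CPM across the knockout ones. All knockout libraries lay below all wild-type libraries, and wild-type replicate 1 was the highest of all. The log2 fold change was -0.33 (SE 0.10; edgeR quasi-likelihood test with Benjamini-Hochberg adjustment, adjusted p = 0.00593), the smallest fall among the 6 called. Over the alternatives the adjusted p ranged from 0.00450 to 0.0464, the latter without wild-type replicate 1.

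The stretch before the Hoxb1 start is shown because it holds a known Hox-responsive sequence. It was read from the RefSeq promoter table on GRCm38.p6 (chr11:96365508-96365751, plus strand, 244 bases ending before the GENCODE start). Capitals mark CCAAT boxes (CCAAT or its reverse complement) and TGATGGATGG, the bipartite Hox-Pbx sequence known from the autoregulatory element of this gene.
Hoxb1: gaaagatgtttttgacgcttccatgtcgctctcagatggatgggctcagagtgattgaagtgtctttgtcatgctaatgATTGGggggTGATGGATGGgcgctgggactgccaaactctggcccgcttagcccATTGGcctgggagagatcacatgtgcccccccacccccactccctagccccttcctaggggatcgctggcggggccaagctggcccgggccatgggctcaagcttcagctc
The Hox-Pbx sequence begins 162 bases before the RefSeq start, which lies inside the GENCODE gene. Searched on both strands, TGATGGATGG occurs in 0.0913% of the 32851 promoter windows of 300 bases in the table, and CCAAT in 37.4% of them. These exact letters are those of the Hoxb1 window itself, so their rarity is no evidence for a site here. The looser Hox-Pbx site, with some bases left open, occurs in 8.78% of the windows. That looser site also has a match in the Hoxb8 window. A match is a description of the letters and does not show binding in these cells.

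Hoxb2 (ENSMUSG00000075588, from 96350525 to 96354012), which acts with Hoxb1 in hindbrain segments and facial motor neurons, stood at 52.5, 54.3 and 52.4 CPM in wild type. In the knockout it stood at 30.1, 28.0 and 30.3 CPM, 55.5% of wild type (95% interval 49.5 to 62.3%). The groups were far apart relative to their spread, with coefficients of variation of 2.07% in wild type and 4.49% in the knockout. Hoxb3 (ENSMUSG00000048763, from 96323326 to 96347930), a gene of the posterior hindbrain and the pharyngeal arches, measured 21.5, 22.1 and 20.5 CPM across the wild-type libraries and 11.6, 12.2 and 13.4 CPM across the knockout ones. The log2 fold change of Hoxb3 was -0.79 (SE 0.12), close to that of Hoxb2 at -0.85 (SE 0.080), and the groups did not overlap for either gene. Hoxb3os, which shares exon sequence with both, stood at 69.8 ± 3.56 CPM in wild type and 43.4 ± 2.55 CPM in the knockout (SD, n = 3), a log2 fold change of -0.69 (SE 0.071). How the 3 falls divide between the strands was not tested.

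Hoxb4 (ENSMUSG00000038692, from 96318267 to 96321638), known for expanding blood stem cells, did not pass the test. Its level was 15.6, 15.3 and 16.7 CPM across the wild-type libraries and 14.6, 14.1 and 14.6 CPM across the knockout ones. All knockout libraries lay below all wild-type ones, but only narrowly, and of the 7 HoxB genes with groups apart in this way, Hoxb4 alone was not called. Among all tested genes, 35.4% were lower without overlap, 35.5% higher without overlap and 70.9% either. The log2 fold change was -0.14 with a 95% interval of -0.40 to 0.13 (edgeR, adjusted p = 0.352), so falls as large as those of Hoxb2, Hoxb3 or Hoxb9 lie outside the interval. A fall as large as that of Hoxb1, at -0.33, lies inside it. The bases before its start (chr11:96318017-96318266, plus strand, GRCm38.p6, RefSeq) are given for comparison with those of Hoxb1 and Hoxb8, with capitals on TGACCT, the reverse complement of the retinoid receptor core site AGGTCA.
Hoxb4: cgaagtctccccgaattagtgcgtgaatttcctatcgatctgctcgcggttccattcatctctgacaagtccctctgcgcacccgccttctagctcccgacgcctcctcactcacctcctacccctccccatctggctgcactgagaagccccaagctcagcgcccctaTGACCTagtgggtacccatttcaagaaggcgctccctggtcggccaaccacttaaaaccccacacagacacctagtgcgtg
This core site lies 81 bases before the start. AGGTCA, on either strand, occurs in 16.3% of all promoter windows, and none was found in the windows of Hoxb1 or Hoxb8. The RefSeq table held promoters for 3 of the 10 genes, Hoxb1, Hoxb4 and Hoxb8.

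Hoxb5, Hoxb6 and Hoxb7 lie side by side in the middle of the cluster and had few reads. Hoxb5 (ENSMUSG00000038700, from 96303336 to 96306121), which acts in neural crest and the enteric nervous system, had 68, 57 and 63 reads across the wild-type libraries and 25, 31 and 33 across the knockout ones. In CPM these were 8.04, 6.06 and 7.73 against 3.22, 3.87 and 3.86, with no overlap. At a log2 fold change of -0.99 it had the largest fall by estimate, but its SE of 0.22 leaves a 95% interval of -1.45 to -0.53 that takes in the estimates of Hoxb2, Hoxb3, Hoxb8 and Hoxb9.

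Hoxb6 (ENSMUSG00000000690, from 96292476 to 96301569), a gene of the trunk and lateral plate, measured 4.61, 5.42 and 6.50 CPM across the wild-type libraries and 5.28, 3.99 and 3.63 CPM across the knockout ones. The groups overlapped because knockout replicate 1 lay within the wild-type range. Its log2 fold change of -0.36 had an interval of -0.85 to 0.13 (edgeR, adjusted p = 0.183), which holds both no change and falls like those of Hoxb3. Hoxb7 (ENSMUSG00000038721, from 96286623 to 96290162), known for its activity in the ureteric bud, measured 5.91, 4.36 and 4.79 CPM across the wild-type libraries and 5.67, 6.61 and 4.92 CPM across the knockout ones. It is the one member with an estimate above 0, at 0.19 with an interval of -0.27 to 0.65 (edgeR, adjusted p = 0.457). Falls as large as those of Hoxb2, Hoxb3, Hoxb5, Hoxb8 or Hoxb9 lie outside that interval. Hoxb5os, whose span crosses Hoxb6, had 40, 43 and 28 reads across the wild-type libraries and 28, 49 and 49 across the knockout ones and did not pass either, at 0.28 (SE 0.25).

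Hoxb8 (ENSMUSG00000056648, from 96281905 to 96285315), which acts in the spinal cord and in a lineage of microglia tied to grooming, measured 10.8, 9.89 and 8.47 CPM across the wild-type libraries and 6.18, 6.36 and 5.62 CPM across the knockout ones. No knockout library reached the lowest wild-type one, and the log2 fold change was -0.68 (SE 0.18; edgeR, adjusted p = 0.00159). Its upstream bases (chr11:96281655-96281904, plus strand, GRCm38.p6, RefSeq) are shown because they differ in make-up from the other promoters. Capitals mark a CCAAT box and TTTATA, the reverse complement of TATAAA, the letters of a TATA box. The TTTATA matches begin 199 and 110 bases before the start, and such matches do not show a working TATA box.
Hoxb8: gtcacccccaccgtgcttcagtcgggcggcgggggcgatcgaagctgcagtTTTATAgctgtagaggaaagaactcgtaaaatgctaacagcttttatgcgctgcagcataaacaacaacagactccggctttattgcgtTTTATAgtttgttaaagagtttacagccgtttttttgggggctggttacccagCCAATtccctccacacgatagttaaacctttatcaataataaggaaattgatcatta
The whole window of 300 bases is 42.3% G and C for Hoxb8, against 59.3% for Hoxb1 and 58.0% for Hoxb4, with a median of 52.7% over all windows in the table. TATAAA, on either strand, occurs in 13.6% of all windows and in neither the Hoxb1 nor the Hoxb4 window.

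Hoxb9 (ENSMUSG00000020875, from 96271457 to 96276595), which patterns the thoracic skeleton and spinal cord, had the smallest adjusted p of the 10. It measured 51.6, 50.4 and 53.7 CPM across the wild-type libraries and 27.4, 26.5 and 26.6 CPM across the knockout ones, with a wide gap between the groups. The knockout was at 51.7% of wild type (95% interval 46.0 to 58.1%; edgeR, adjusted p = 1.14e-10). By log2 fold change, 10.4% of all tested genes were as low as Hoxb9 or lower, and 9.78% as low as Hoxb5. Hoxb13 (ENSMUSG00000049604, from 96194316 to 96197447), a gene of the tail bud and prostate, was the lowest member in wild type, with 21, 34 and 30 reads across the wild-type libraries and 24, 29 and 23 across the knockout ones. Its groups overlapped fully, and its log2 fold change of -0.06 had an interval of -0.65 to 0.53, too wide to tell no change from a fall like that of Hoxb1.

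**Figure D2:**
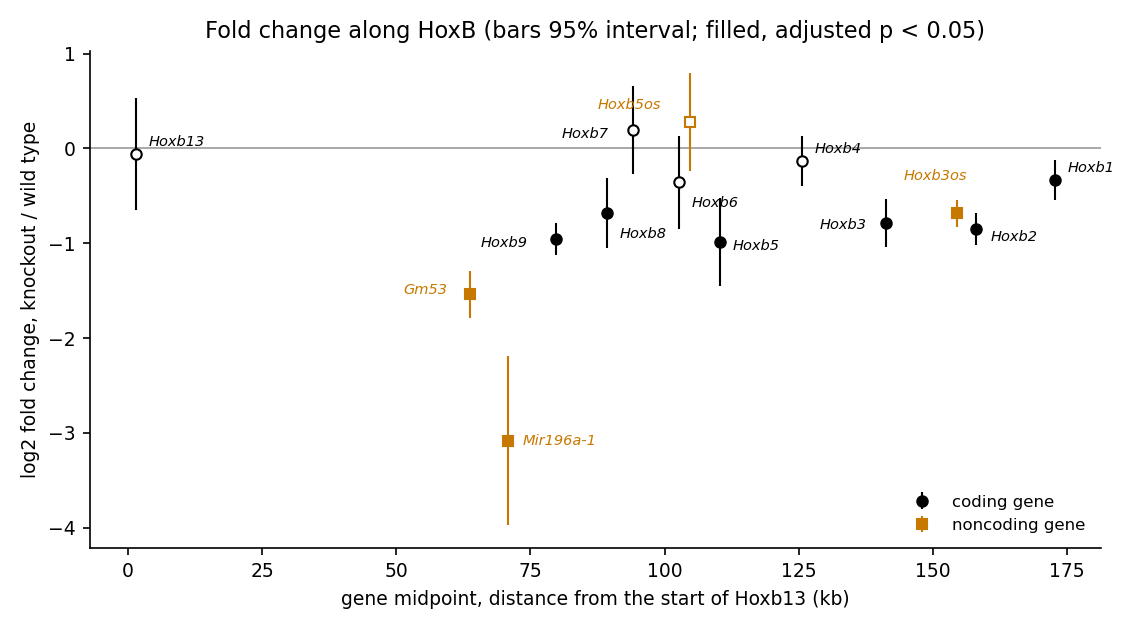
Log2 fold change, knockout over wild type, of every tested gene between Hoxb13 and Hoxb1 against the distance of its midpoint from the Hoxb13 start in kilobases. Circles are coding and squares noncoding genes, bars are 95% intervals, and filled symbols passed an adjusted p of 0.05. Hoxb4, Hoxb6, Hoxb7 and Hoxb13 are open, at -0.14, -0.36, 0.19 and -0.06, and called genes lie on both sides of Hoxb4.

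The falls did not follow the order of the genes. From Hoxb1 to Hoxb13, the calls ran lower for the first 3 genes, none for Hoxb4, lower for Hoxb5, none for Hoxb6 and Hoxb7, lower for Hoxb8 and Hoxb9, and none for Hoxb13. Across the 10 genes, which share libraries and so are not independent, the correlation of log2 fold change with chromosomal position was -0.28 (Pearson) and -0.16 (Spearman). With the log2 CPM in wild type it was -0.57 and -0.56, respectively. The genes that did not pass include the lowest-counted members, where the intervals are widest, but also Hoxb4, which had 412 reads in wild type against 188 for Hoxb5 and 253 for Hoxb8, both called.

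Between Hoxb13 and Hoxb9, the tested noncoding genes fell further than any coding member by estimate. Gm53, from 96251105 to 96264868 on the plus strand, had 289, 285 and 270 reads across the wild-type libraries and 88, 80 and 104 across the knockout ones, with a log2 fold change of -1.54 (SE 0.12). Mir196a-1, a microRNA hairpin from 96265164 to 96265265 between Gm53 and Hoxb9, had 29, 48 and 26 reads across the wild-type libraries and 2, 3 and 6 across the knockout ones, with a log2 fold change of -3.08 (SE 0.43). The groups were well apart for both. Reads over the hairpin do not tell its mature product from longer transcripts across it. Of the 12 entries in the list of noncoding genes in and near HoxB, 5 were tested and 3 fell (Hoxb3os, Mir196a-1 and Gm53). Another 1 rose, D030028A08Rik, which lies outside the cluster. Among all tested genes, 34.0% fell and 34.5% rose, so a count from so short a list says little. Mir10a, the other microRNA locus of the cluster, next to Hoxb4, had 1 count in wild type and 8 in the knockout over 3 libraries each and was not tested.

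Hoxb8 is a textbook target of miR-196a, so the pairing is printed beside the fall of both loci. The mature sequence is from RefSeq (chr11:96265187-96265208, plus strand, GRCm38.p6), with its seed, bases 2 to 8, in capitals. The Hoxb8 site is from the GENCODE M21 transcript (chr11:96284888-96284909, plus strand, GRCm38), 417 bases after the stop codon, with the bases facing the seed in capitals.
mmu-miR-196a-5p: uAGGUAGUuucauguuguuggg
Hoxb8 site: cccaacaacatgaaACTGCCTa
Of 22 positions, 21 form Watson-Crick pairs and 1 a G-U pair. In the other 9 members the best ungapped match in the 3′ untranslated region had 11 to 14 Watson-Crick pairs. The exact seed match ACTACCT occurs in the 3′ untranslated regions of Hoxb1, Hoxb6 and Hoxb7, 3 of 10, and in 5.51% of the 20636 coding genes with such a region. The seed-matched genes include 1 that fell and 2 that did not pass, and Hoxb8 itself, with its G-U pair, fell. Reads over the Mir196a-1 hairpin do not give the level of mature miR-196a, and its effect on any member was not tested.

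Neighbours could also be compared inside each library, where no scaling between libraries enters. For each of the 9 pairs along the cluster, the log2 ratio of counts (with 0.5 added) was taken, and the difference between groups was tested by an exact two-sided permutation test over the 6 libraries, which cannot go below p = 0.10. The log2 ratio of Hoxb7 to Hoxb8 was -0.86, -1.17 and -0.82 for the wild-type libraries and -0.12, 0.05 and -0.19 for the knockout ones. The counts thus went from clearly unequal to nearly equal, but counts are not scaled by gene length. Per kilobase of exon, Hoxb7 and Hoxb8 stood at 3.25 and 3.68 CPM in wild type, with overlapping ranges. In the knockout they stood at 3.71 and 2.30 CPM. The ratios on both sides of Hoxb4 also moved. The ratio of Hoxb3 to Hoxb4 went from 0.46, 0.53 and 0.30 to -0.33, -0.20 and -0.13, changing sign. That of Hoxb4 to Hoxb5 went from 0.95, 1.33 and 1.10 to 2.15, 1.85 and 1.91. The change of sign is one of counts, and which gene stands higher depends on the length used. Per kilobase of exon, Hoxb3 was below Hoxb4 in both groups, at 5.03 and 6.19 CPM in wild type and 2.92 and 5.62 CPM in the knockout.

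In contrast, the ratio of Hoxb2 to Hoxb3 was 1.31 ± 0.0363 in wild type and 1.25 ± 0.109 in the knockout (SD, n = 3), with overlapping groups (exact permutation p = 0.4). The ratio of Hoxb1 to Hoxb2 went from -0.83 ± 0.148 to -0.31 ± 0.0511, and that of Hoxb9 to Hoxb13 from 3.99 ± 0.308 to 3.08 ± 0.216. Groups did not overlap in 7 of the 9 pairs, each at the smallest p possible, 0.10 (exact permutation, 0.129 after Benjamini-Hochberg adjustment over 9 pairs), so none passed. Among all 13260 pairs of neighbouring tested coding genes, 70.4% did not overlap. The absolute difference between groups had a median of 0.62 over the HoxB pairs and of 0.69 over all pairs. These medians are a description and were not tested against each other. The 9 HoxB pairs share genes, and all pairs were not matched to them by read count.

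**Figure D3:**
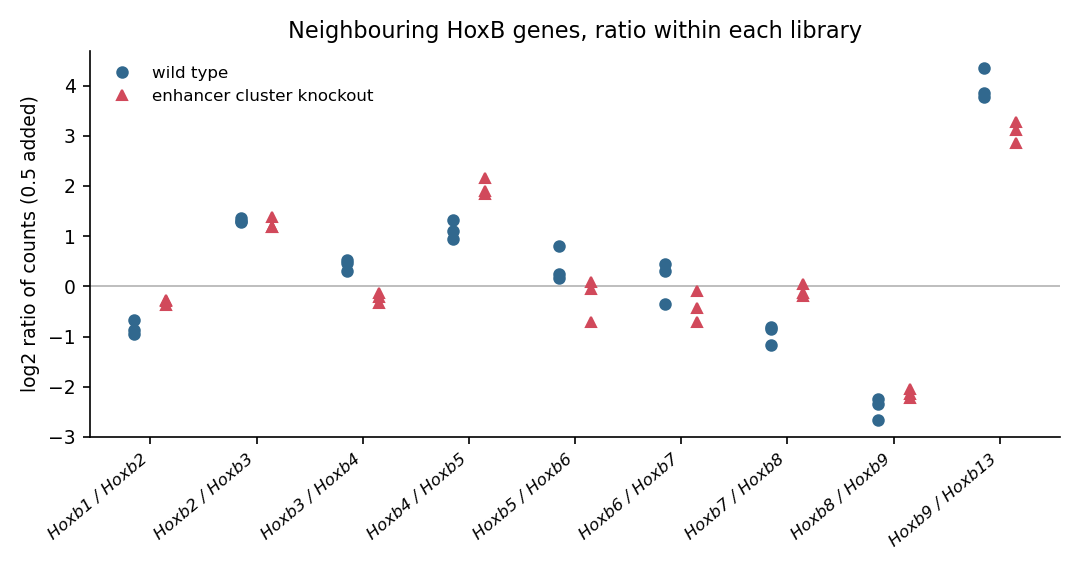
Log2 ratio of the counts of neighbouring HoxB genes within each library, 0.5 added to each count, with pairs in cluster order. Circles are wild-type and triangles knockout libraries. Hoxb2 over Hoxb3 is alike in both groups (1.31 and 1.25 on average), while Hoxb3 over Hoxb4 changes sign and Hoxb7 over Hoxb8 rises to near 0. Counts are not scaled by gene length, so the sign of a ratio does not rank the levels of its genes.

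Summed over the cluster, HoxB stood at 203.0 ± 3.25 CPM for wild type and 129.8 ± 1.28 CPM for the knockout (SD, n = 3), given as a description. Of the cluster's counts, Hoxb9 held 25.6 ± 0.769% in wild type and 20.7 ± 0.328% in the knockout, and Hoxb2 26.2 ± 0.934% and 22.7 ± 0.803%. The share of Hoxb4 was 7.82 ± 0.344% in wild type and 11.1 ± 0.118% in the knockout, and that of Hoxb1 was 14.8 ± 1.14% and 18.3 ± 0.638%. Hoxb8 kept nearly the same share, 4.78 ± 0.548% and 4.67 ± 0.332%. A share rises for any gene that falls less than the cluster as a whole, as Hoxb1 did.

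Levels of different genes were compared as CPM per kilobase of exon. In wild type the order was Hoxb9 (20.2 ± 0.658), Hoxb2 (15.2 ± 0.314), Hoxb1 (12.9, libraries from 12.1 to 14.3), Hoxb4 (6.19 ± 0.282) and Hoxb3 (5.03 ± 0.194), and each of these was separate from the next over the 3 libraries. Hoxb8 (3.68 ± 0.440), Hoxb7 (3.25 ± 0.520), Hoxb6 (2.81 ± 0.483) and Hoxb5 (2.61 ± 0.382) followed, with ranges that overlapped from each to the next. Hoxb13 was last, at 1.48 ± 0.305. The level did not follow gene number, since Hoxb9 was above every lower-numbered gene.

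In the knockout, Hoxb9 (10.4 ± 0.208) and Hoxb1 (10.2 ± 0.408) were no longer separate, and Hoxb2 (8.45 ± 0.380) came below both. Hoxb4 followed at 5.62 ± 0.113 and Hoxb7 at 3.71 ± 0.550, now above Hoxb3 at 2.92 ± 0.209. Hoxb8 (2.30 ± 0.147) and Hoxb6 (2.19 ± 0.442) overlapped, as did Hoxb13 (1.42 ± 0.210) and Hoxb5 (1.31 ± 0.134), the latter now last. These places depend on the length used, in both groups. When the same whole-gene CPM was divided by only the exon length free of the other strand, Hoxb2 led in wild type at 20.9. It was not separate from Hoxb9, and Hoxb3 stood at 10.7, above Hoxb4. In the knockout Hoxb2 then led at 11.6, separate from Hoxb9, and Hoxb3 was above Hoxb4 and Hoxb7. Reads over the free sequence alone were not counted. This shorter length therefore overstates Hoxb2 and Hoxb3 if their overlapped exons also gave reads. By longest transcript, Hoxb1 led the knockout at 11.4, separate from Hoxb9, and Hoxb7 and Hoxb3 overlapped.

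**Figure D4:**
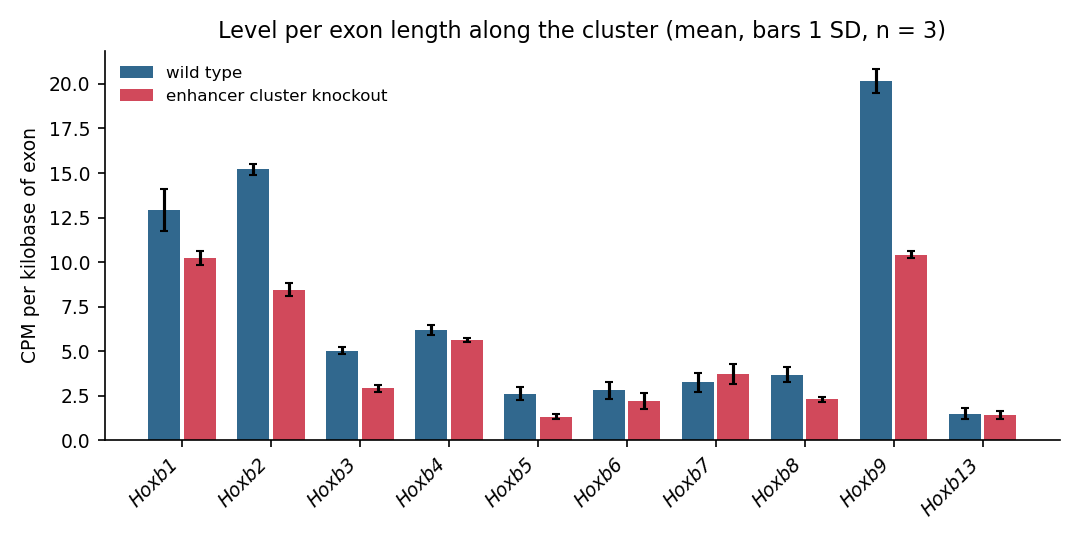
Mean level of each HoxB gene in CPM per kilobase of exon, with genes in cluster order, wild type in blue and knockout in red. Bars are 1 SD over 3 libraries. Hoxb9 stands highest in wild type at 20.2, and Hoxb9 and Hoxb1 are level in the knockout at 10.4 and 10.2.

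Of all Hox reads, HoxB carried 38.9 to 39.6% per wild-type library but 32.3 to 33.8% per knockout library. HoxA carried 40.5 to 41.0% and then 44.3 to 44.7%. Of the 29 genes of the other clusters, 21 were tested, 9 fell and 4 rose, with a median log2 fold change of -0.40 beside -0.52 for HoxB, where 34.0% of all tested genes fell and 34.5% rose. Named by smallest adjusted p, Hoxa3 fell by 1.14 on the log2 scale, Hoxa5 by 0.97, Hoxa7 by 1.29 and Hoxc9 by 1.36. Whether HoxB fell more than the other clusters was not tested here.

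Set by number, the members and their paralogs moved alike in some groups and apart in others. At numbers 3, 5, 8 and 9, the HoxB gene and at least 1 paralog fell, for example Hoxb3 at -0.79 beside Hoxa3 at -1.14, Hoxb5 at -0.99 beside Hoxa5 at -0.97, and Hoxb9 at -0.95 beside Hoxc9 at -1.36. At number 7, Hoxb7 did not pass while Hoxa7 fell by 1.29, and Hoxb7 counts went from 23.9 to 46.8% of the summed reads of the 2 genes. At number 4, Hoxb4 did not pass, Hoxa4 was at -1.59 and Hoxc4 at 1.08. Hoxb2 made up 92.0% of the reads of its number in wild type and 89.4% in the knockout, and the summed level of that number was 57.7 and 33.0 CPM on average. Hoxb5, in contrast, made up 11.8% of its number in wild type. These shares are of reads and were not scaled by gene length, and the differences between paralogs were not tested.

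**Figure D5:**
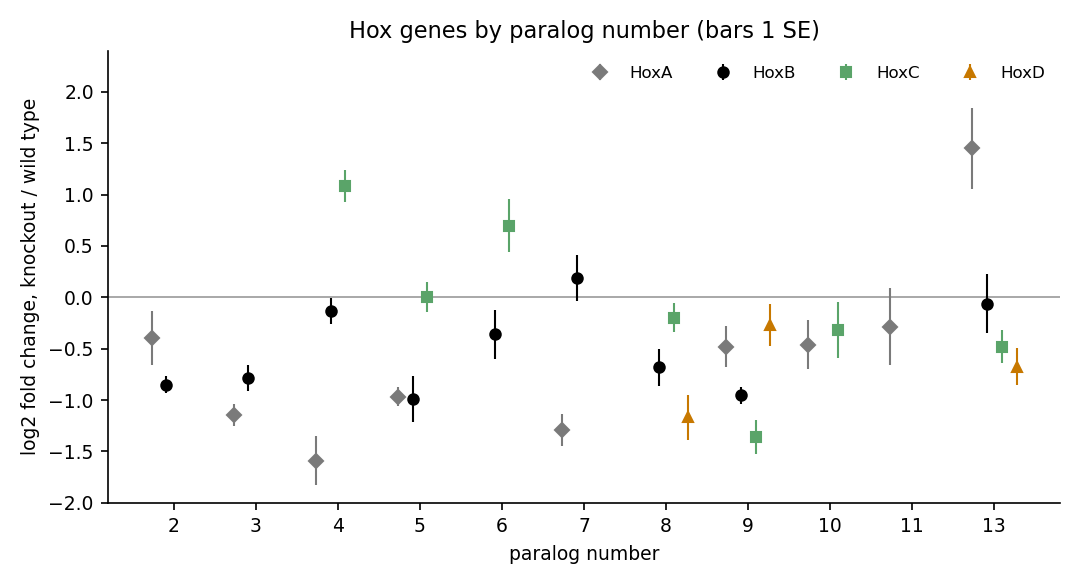
Log2 fold change, knockout over wild type, of tested Hox genes by paralog number from 2 to 13, with bars of 1 SE and a symbol for each cluster. HoxB and HoxA genes lie close together at number 5 (-0.99 and -0.97) and far apart at number 7 (0.19 and -1.29).

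Hox proteins bind DNA with TALE homeodomain partners of the Pbx, Meis and Pknox families. Of 9 such genes, all tested, 5 rose and 1 fell, with a median log2 fold change of 0.25. Meis1 rose by 0.40 (SE 0.065), Pbx3 by 0.69 (SE 0.11) and Pknox2 by 0.89 (SE 0.15). A list of 23 regulators known to act on Hox genes held 18 tested, of which 13 fell and 4 rose (median -0.28), beside the same 34.0% and 34.5% over all tested genes. Among them the retinoic acid receptors moved apart, Rarg to -1.47 (SE 0.076) and Rarb to 0.62 (SE 0.046). Cdx1, a caudal-type factor that activates Hox genes in the trunk, was at -2.45 (SE 0.16), and Ctcf, which bounds chromatin domains at Hox clusters, at -0.54 (SE 0.046).

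Genes of like pattern over the 6 libraries were sought for Hoxb2, Hoxb3, Hoxb4, Hoxb5, Hoxb7 and Hoxb9, and the 3 nearest to each were not Hox genes. Likeness was the root mean square difference of log2 CPM (0.1 added), each gene centred on its own mean. Candidates were 9821 genes with a mean of at least 10 CPM and no predicted-gene or clone name. That floor left out Hoxb5, Hoxb6, Hoxb7, Hoxb8 and Hoxb13, so these could not be among the nearest. With 2 groups, a small difference mainly means a like fold change. The nearest to Hoxb9 were Pcna (0.0266), Ppm1g (0.0285) and Fn1 (0.0335), to Hoxb2 Rpa2 (0.0297), Ubqln4 (0.0299) and Rraga (0.0324), and to Hoxb3 Pum3 (0.0245), Slc35e1 (0.0361) and Dpp9 (0.0394). Those of Hoxb5 were Plagl2 (0.0905), Ier2 (0.0982) and Chn2 (0.106). For Hoxb4 they were Secisbp2l (0.0103), Cul2 (0.0162) and Sar1a (0.0227), and for Hoxb7 Rpusd3 (0.0678), Srcin1 (0.0704) and Taok3 (0.0754). Ranked among all 15815 other tested genes, the closest HoxB gene to Hoxb9 was Hoxb2, in place 143, and the closest to Hoxb3 was Hoxb2, in place 113. For Hoxb4 the closest was Hoxb1, in place 2529, and for Hoxb7 it was Hoxb4, in place 3901.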

How the data were processed

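The submitters' processing notes name HISAT2 2.1.0, HTSeq 0.9.1, DESeq2 1.18.1 and mm10, while annotation release, strand setting and read layout are not given in the sources used here. Raw read counts per gene were deposited, 1 table per library. Genes took 36.0 to 38.4% of reads, and the tallies of reads given to no gene stayed out of library sizes. Symbols came from GENCODE M21 (52403 of 52636 genes matched). Tests used edgeR 4.0.16 under R 4.3.3 (filterByExpr with a minimum count of 10, TMM scaling, quasi-likelihood F tests, no covariate), adjusted by Benjamini-Hochberg over 15816 genes at a threshold of 0.05. SEs were derived from F and the fold change. Intervals are at 95%. DESeq2 1.42.0, limma 3.58.1 (voom), other scalings and filters, a replicate block and leaving out each library were tried. The fit was tested on simulated data. Permutation tests used SciPy 1.17.1. All 10 members were named, and up to 4 genes of each list by smallest adjusted p, and 3 most alike genes for 6 members. Hoxb5os, Mir10a, Hoxa4, Hoxc4, Sox1, Nes and Fabp7 were named outside that rule, after their values were seen. Some single-gene results are not reported here. The members and lists were chosen with earlier results of these data known. Whether replicates came from separate cultures is not stated, so p-values may measure only technical spread.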

Additional observations from a re-analysis of the deposited data

How the results depend on the processing

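The counts of 6 HoxB genes lower and 0 higher held in all 13 alternatives, with the same genes called each time, and the count of all changed genes, 10848, ranged from 9923 (DESeq2) to 11424 (no low-count filter, 28062 genes tested). No shared deviation was seen between same-numbered libraries, with correlations of 0.0133, 0.00486 and -0.0131 over 15816 genes. Such correlations cannot tell whether those libraries shared a culture or day. With the replicate block 6 HoxB genes were lower, 0 higher and 10862 genes changed. Leaving out 1 library at a time moved the log2 fold change of Hoxb13 between -0.23 and 0.0402, with a change of sign to 0.02 without wild-type replicate 2 or 3 and to 0.0402 without knockout replicate 3, and that of Hoxb7 between 0.08 and 0.32, with neither called in any of them (adjusted p by edgeR of 0.272 at the lowest for Hoxb7 and 0.535 for Hoxb13). Upper-quartile scaling moved the balance of all calls to 5769 higher and 5104 lower, from 5463 and 5385. The same Hoxb3 CPM in wild type gave 5.03, 6.70 or 10.7 per kilobase when divided by the length of exon union, longest transcript or exons free of the other strand. With 76 to 143 reads per group, the 95% intervals of Hoxb6 and Hoxb13 hold both no change and a fall of the size seen for Hoxb1. The interval of Hoxb4, which had more reads, holds both as well.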
